A study of Mus musculus with 19 samples.

Results

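The comparison described here is that of wild-type spleen type 1 conventional dendritic cells (DC1) with and without Irf8VENUS, a fluorescent reporter of the gene Irf8. Its members were chosen by title and tissue: the 5 spleen arrays of wild-type (WT) mice, 3 WT Irf8VENUS+ and 2 WT Irf8VENUS-, of 19 arrays in the series. All were Affymetrix arrays of sorted DC1 from female mice on a C57Bl/6j background, with no treatment in the labels. Replicates 1 and 2 of the Irf8VENUS+ group and both Irf8VENUS- arrays were sorted as CD24+XCR1+, and Irf8VENUS+ replicate 3 as CD24+ alone. A further 3 spleen arrays were of Batf3-/- Irf8VENUS+ female mice on that background, 2 sorted as CD24+XCR1+ and 1 as CD24+. They shared the estimates of the spread and of the effect of the sort gate, and give levels beside those of the WT arrays. The gate effect was taken as equal in both genotypes, and no Irf8VENUS- array was sorted as CD24+ alone. The Batf3-/- values therefore also move the fitted WT differences. The 11 lymph node arrays were not used. The labels do not give the animals' ages, how Irf8VENUS was built, whether animals were pooled, or whether the arrays within a group are from different animals, so p-values measure only the spread between these arrays, which may be technical. The labels write the reporter state as part of the genotype, and the series title writes the Irf8VENUS- animals simply as WT.

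IRF8 is a transcription factor of the interferon regulatory factor family that binds DNA mostly with partners, among them PU.1 and BATF-JUN dimers, because it binds weakly alone. DC1 need it for their development and their identity and express it strongly; BATF3 is its partner in sustaining that level. VENUS is a yellow variant of green fluorescent protein, so a cell that makes it can be seen by flow cytometry.

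Values are log2 intensities. A difference is the Irf8VENUS+ minus the Irf8VENUS- group, estimated with the sort gate as a term and given with its standard error (SE). Adjusted p-values are limma's with Benjamini-Hochberg adjustment over 12875 genes, and a gene is called, and said to have risen or fallen, below 0.05. The matched-gate difference uses the CD24+XCR1+ arrays alone, 2 against 2 in the WT mice. It is a plain difference of means, and its adjusted p comes from a fit of the 3 groups of CD24+XCR1+ arrays.

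The arrays carried the DC1 genes they were sorted for. Of the 10 genes on the list of DC1 defining markers, 9 had a probe set with 1 symbol and all 9 were bright enough to test; the summed level of these markers lay between 13.82 and 14.17 log2 units on the 5 WT arrays. Xcr1, the chemokine receptor used in the gate, read 9.98, 11.42 and 10.56 on the Irf8VENUS+ arrays and 11.26 and 11.11 on the Irf8VENUS- arrays. Batf3 read between 9.42 and 10.41 on the WT arrays and between 5.29 and 7.08 on the Batf3-/- arrays, on the sides that the labels give. Sirpa, which encodes CD172a, was dim, between 5.35 and 5.76 on the WT arrays, although the spleen sorting protocol lists CD172a as positive. In sorted bulk samples a lower level of a marker can come from fewer cells of a type or from less RNA per cell, and these cannot be told apart.

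WT Irf8VENUS+ replicate 1 stood apart. Its values over the tested genes correlated with the other 7 spleen arrays at 0.9099 to 0.9382, below the 0.9659 between both Irf8VENUS- arrays and the 0.9568 between the other Irf8VENUS+ arrays. Array weights estimated by limma gave it 0.317, against 0.962 to 1.98 for the others. The Irf8VENUS+ group also had the larger spread, with a median SD of 0.232 log2 units against 0.139 for the Irf8VENUS- group, and results that rest on replicate 1 are therefore given with and without it. The CD24+ replicates of the WT and Batf3-/- groups correlated at 0.9661 with each other, above the correlation of either with any other array.

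Probe sets that the platform annotation leaves unnamed separated the arrays by reporter label. Over all 41345 probe sets, 6 read at least 3 log2 units higher on each of the 6 Irf8VENUS+ arrays, Batf3-/- included, than on either Irf8VENUS- array, and all 6 were unnamed. They held 4 distinct sets of values, because probe sets 17549014, 17549136 and 17549148 were identical on every array. Probe set 17549014 read 12.50, 12.39 and 12.65 on the WT Irf8VENUS+ arrays and 5.89 and 6.06 on the Irf8VENUS- arrays. On the Batf3-/- Irf8VENUS+ arrays it read 11.90, 12.08 and 12.28, so it was bright wherever the label has the reporter and dim where it does not. The difference was 6.46 ± 0.12 (SE), with an adjusted p of 1.37e-05 in a limma fit of 23295 single probe sets.

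Probe set 17549072 was higher by 5.53 ± 0.27 (adjusted p 0.0034) and 17549066 by 5.34 ± 0.21 (adjusted p 0.000966) in the same limma fit. Probe set 17549018 read 8.52, 10.23 and 9.77 against 4.96 and 4.75, a difference of 4.75 ± 0.59 whose adjusted p of 0.292 did not pass. A single unnamed probe set, 17207653, went the other way: it read 4.31, 4.14 and 5.17 on the Irf8VENUS+ arrays and 6.74 and 6.75 on the Irf8VENUS- arrays, a difference of -2.44 ± 0.19 (adjusted p 0.0392). The 6 probe sets called in that fit, 3 of them the identical ones, were all unnamed. No named gene lay higher on all 6 Irf8VENUS+ arrays than on both Irf8VENUS- arrays by more than the 2.34 log2 units of Pla2g7. Gaps in the other direction over these arrays were not measured for named genes. The annotation at hand does not say what these probe sets target.

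**Figure D1:**
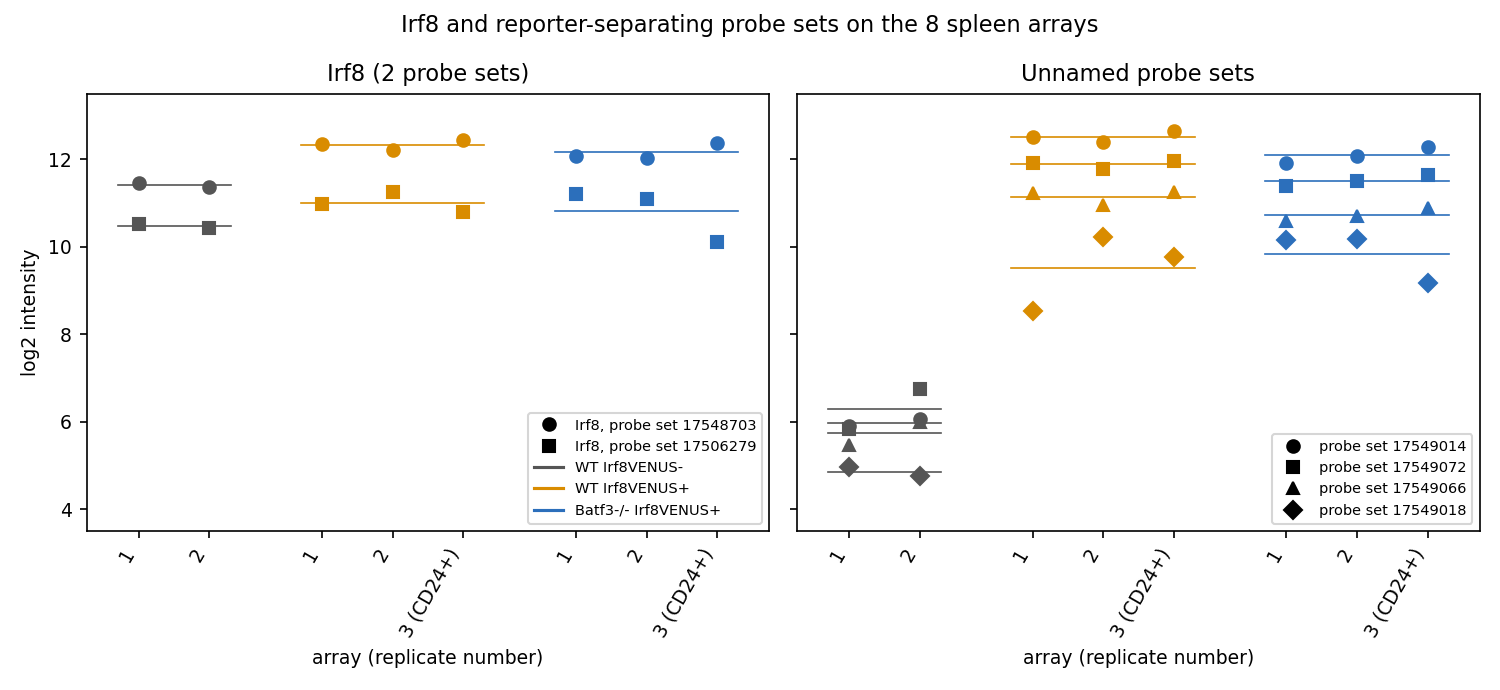
Log2 intensity of both Irf8 probe sets (left) and of the 4 distinct unnamed probe sets (right) on each of the 8 spleen arrays; points are arrays, horizontal lines are group means, and CD24+ marks the arrays sorted without XCR1. The unnamed probe sets lie between 4.75 and 6.75 on the Irf8VENUS- arrays and between 8.52 and 12.65 on the 6 Irf8VENUS+ arrays, while the brighter Irf8 probe set is at 11.46 and 11.38 against 12.21 to 12.43 in WT.

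Irf8 itself was higher on the reporter arrays by less than 1 log2 unit. Its brighter probe set, 17548703, read 12.35, 12.21 and 12.43 on the WT Irf8VENUS+ arrays and 11.46 and 11.38 on the Irf8VENUS- arrays. All 3 reporter arrays lay above both others, with a gap of 0.75 between the nearest arrays. The group means were 12.33 ± 0.11 (SD, n = 3) and 11.42 ± 0.06 (SD, n = 2). The fitted difference was 0.83 ± 0.10, or 1.78-fold, the fourth smallest p of all tested genes, and its adjusted p of 0.0601 in limma just missed the threshold. With the gate matched the difference was 0.86 ± 0.10 (limma, adjusted p 0.112). Without replicate 1 it was 0.77 ± 0.07 with an adjusted p of 0.0232 in limma, past the threshold. An exact two-sided permutation test of the plain difference of 0.91 gave p = 0.1, the smallest that the 10 splits of 3 against 2 arrays allow.

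The second Irf8 probe set, 17506279, differed in the same direction with more spread. It read 10.98, 11.25 and 10.78 against 10.52 and 10.43, so the groups did not overlap. Its difference was 0.75 ± 0.20, with an unadjusted p of 0.00882 and an adjusted p of 0.566 in the limma fit of single probe sets, where 17548703 had 0.113. On the Batf3-/- Irf8VENUS+ arrays the brighter probe set read 12.08, 12.03 and 12.36 and the second 11.21, 11.09 and 10.11. Levels of the brighter probe set were thus above both Irf8VENUS- arrays in every Irf8VENUS+ array, with or without Batf3, and the second was below them on the CD24+ Batf3-/- array. Where the probe sets lie within the gene is not given, and where the reporter sequence was placed is not given either.

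Irf8 lies on chromosome 8 at 120736358 to 120756694 (GRCm38.p6). The first of its RefSeq start-site windows, 250 bases before to 50 after the start, is shown because the reporter is named for Irf8. It stands beside that of Pla2g7, the gene with the smallest p. Capitals mark matches to TTCNNNGAA, the core bound by STAT factors.
Irf8, chr8:120736108-120736407, plus strand: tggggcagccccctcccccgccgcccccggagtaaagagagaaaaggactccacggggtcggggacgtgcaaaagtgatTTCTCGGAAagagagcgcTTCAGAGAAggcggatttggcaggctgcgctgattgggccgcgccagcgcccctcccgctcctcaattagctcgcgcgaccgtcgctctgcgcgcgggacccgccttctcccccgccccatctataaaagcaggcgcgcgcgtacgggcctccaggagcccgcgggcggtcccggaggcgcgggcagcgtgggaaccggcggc
Pla2g7, chr17:43568201-43568500, plus strand: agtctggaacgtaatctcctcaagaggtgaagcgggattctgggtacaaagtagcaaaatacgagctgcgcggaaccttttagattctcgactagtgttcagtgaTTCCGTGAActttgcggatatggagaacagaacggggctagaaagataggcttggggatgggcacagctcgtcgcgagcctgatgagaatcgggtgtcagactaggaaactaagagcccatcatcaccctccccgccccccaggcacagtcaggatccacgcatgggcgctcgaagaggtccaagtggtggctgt

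Both sequences are RefSeq's for GRCm38.p6. The Irf8 window holds TTCTCGGAA, at position -171 from the start, and TTCAGAGAA, at -153; the Pla2g7 window holds TTCCGTGAA, at -145. A match is a description of letters, not a site. TTCNNNGAA was in 6.76% of the 12625 windows available for tested genes. Searched on both strands, the interferon-stimulated response element core (GAAA, any 2 bases, GAAA) was in 3.03% of windows, the ETS-IRF composite element (GGAA, any 2 bases, GAAA, which can overlap the former) in 2.42% and TGANTCA (the AP-1 core) in 5.64%. None of these 4 was in the second Irf8 window, nor in the windows of the other called genes, Sult1a1 (chr7:126676369-126676668, minus strand) and Klra5 (chr6:129913175-129913474, minus strand). Of the 12 genes named below as higher, 10 had a window; 0 held the response element core, 0 the composite element, 2 TTCNNNGAA and 1 TGANTCA. Of the 12 named as lower, 10 had a window and the counts were 1, 0, 1 and 2. Over the 10093 tested genes with a window, the shares of genes with at least 1 match were 3.62%, 2.88%, 8.08% and 6.68%, in the same order.

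The IRF list had 10 tested genes, 7 IRFs and the IRF2-binding proteins Irf2bp1, Irf2bp2 and Irf2bpl, and 0 passed the adjusted test. Irf7, which amplifies type I interferon production, came closest after Irf8: it read 7.73, 7.22 and 7.40 against 6.54 and 6.91, a difference of 0.81 ± 0.24 (limma, adjusted p 0.509). Irf4, the family member most like IRF8 and more typical of the other conventional subset, cDC2, read 4.71, 5.12 and 5.36 against 4.94 and 5.71, and the groups overlapped. Irf1, Irf2 and Irf3 differed by -0.21 ± 0.22, -0.02 ± 0.17 and 0.01 ± 0.31. The median over the 10 genes, binding proteins included, was -0.007, beside 0.016 over all tested genes.

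Of the IRF8 partner factors, 13 were tested and 0 were called. Jun, the AP-1 subunit that pairs with BATF proteins, read 8.97 to 9.82 on the reporter arrays, below both Irf8VENUS- arrays, a difference of -0.38 ± 0.16 (limma, adjusted p 0.606). Batf3 differed by 0.04 ± 0.33 (limma, adjusted p 0.987). Its arrays overlapped, at 9.64, 9.73 and 10.41 against 9.69 and 9.42. Jund read 10.47 on replicate 1 and 8.97 and 9.05 on the other Irf8VENUS+ arrays, and its difference of 1.04 ± 0.53 was 0.31 ± 0.31 without replicate 1.

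None of the genes around Irf8 was called. Among the 30 nearest tested genes, 15 on each side, 0 were called. The share called over all tested genes was 0.0233%. At unadjusted p under 0.05, 1 of the 30 was higher and 1 lower, against 4.52% and 3.39% of all tested genes, 7.91% in either direction. In 8 of the 30 all Irf8VENUS+ arrays lay above both Irf8VENUS- arrays and in 5 below, against 14.6% and 10.3% of all tested genes. The median difference of the 30 was 0.091, and 0.011 without replicate 1. Over the 102 tested genes within 5 Mb of Irf8, 0 were called and the median difference was 0.069.

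The nearest tested gene was Cox4i1, a subunit of cytochrome c oxidase, 62.1 kb away. It read 10.95, 10.80 and 10.83 on the Irf8VENUS+ arrays and 10.60 and 10.54 on the Irf8VENUS- arrays, without overlap, and its difference was 0.28 ± 0.14 (limma, adjusted p 0.664). Emc8, of the membrane protein insertion complex and 68.3 kb away, differed by -0.09 ± 0.19. Gins2, a DNA replication factor at 147.3 kb, differed by -0.36 ± 0.26 and Gse1, at 155.0 kb, by 0.30 ± 0.17. On the other side the first tested gene was Foxf1, a forkhead transcription factor 327.7 kb away, with 0.09 ± 0.22. The extremes of the 30 were Hsdl1, at 0.56 ± 0.20, and 1700030M09Rik, at -0.42 ± 0.18.

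**Figure D2:**
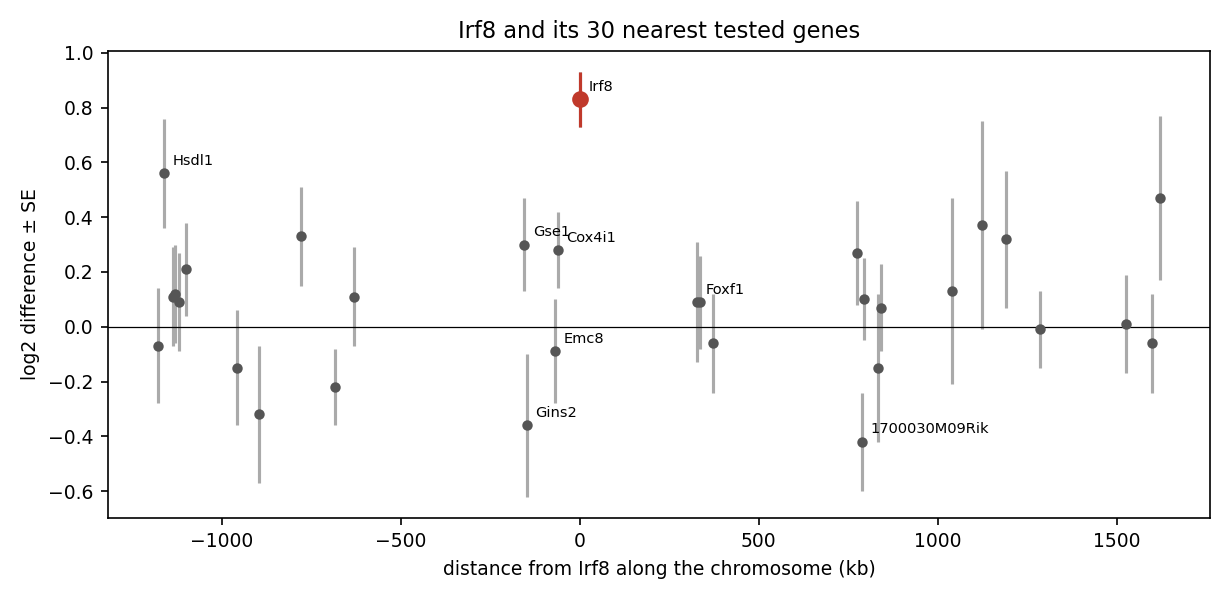
Log2 difference with its SE (vertical bars) of Irf8 (red, at 0 kb) and of its 30 nearest tested genes (grey) against distance along the chromosome in kb. Irf8 is at 0.83, and the 30 neighbours lie between -0.42 and 0.56.

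Over all 12875 tested genes, 3 were called, 0.0233%: Pla2g7 and Sult1a1 rose (0.0155%) and Klra5 fell (0.00777%). The median difference was 0.0156, and from the 5th to the 95th percentile the differences ran from -0.511 to 0.517, with a median SE of 0.206. A difference of at least 1 log2 unit was estimated for 73 genes and of -1 or less for 135. At unadjusted p under 0.05 there were 582 genes with higher and 436 with lower values; centring each array on its median made that 745 and 334, a fit of every probe set gave 812 and 921 probe sets, and the matched-gate WT arrays, 2 against 2, gave 384 and 375 genes. The groups did not overlap for 3206 genes, 24.9%, of which 1876 were above and 1330 below; centring made these 2337 and 1030. The largest estimate was Mterf1b at 3.5 ± 0.86, with Irf8VENUS+ arrays at 7.17, 6.56 and 4.63 against 3.09 and 2.26 and an adjusted p of 0.425 in limma. With the gate matched Mterf1b was called, at 4.19 ± 0.32 (limma, adjusted p 0.036). Its Irf8VENUS- arrays were under the filter level, so the size of its difference rests on values that may be background.

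**Figure D3:**
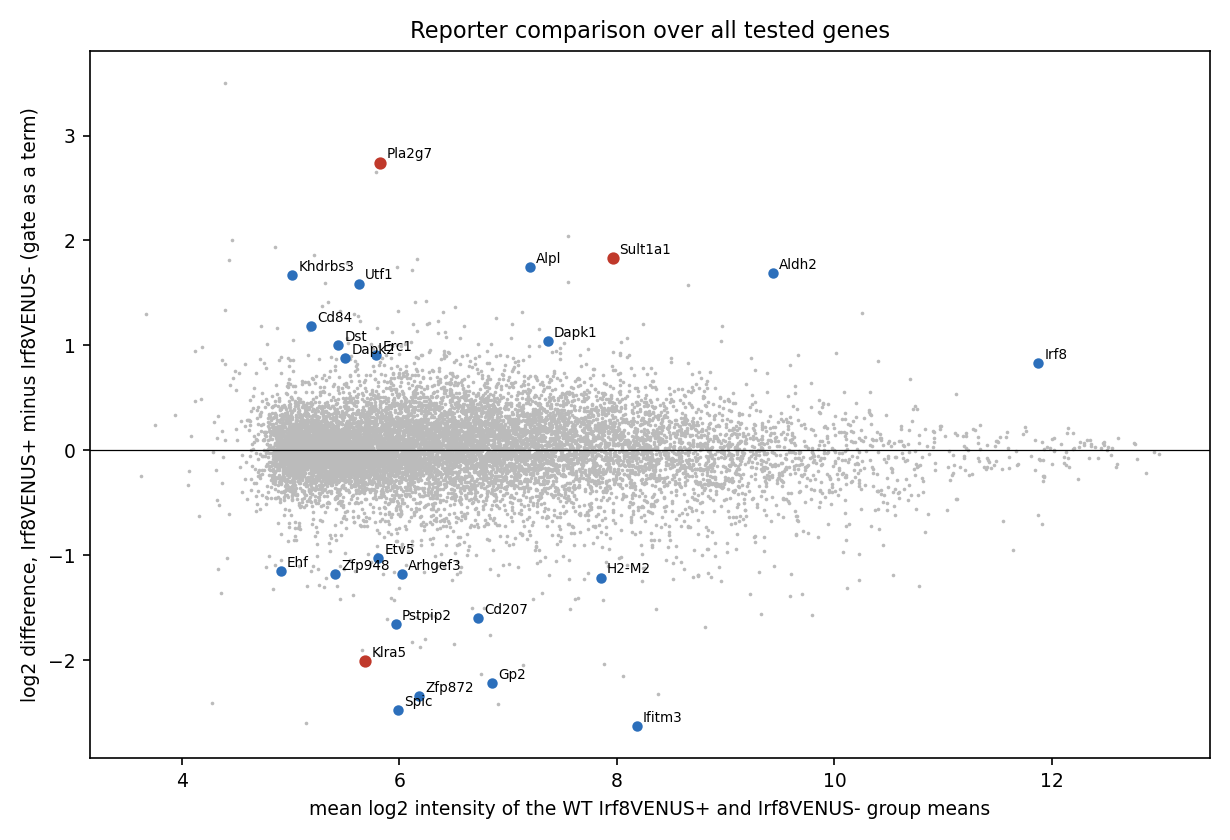
Each point is 1 of 12875 tested genes, with the mean of the WT group levels (log2 intensity) on the horizontal axis and the log2 difference on the vertical axis. The 3 called genes are in red and the other named genes in blue; Irf8 is the brightest of the labelled genes, and the 5th to 95th percentile of all differences runs from -0.511 to 0.517.

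Pla2g7, a secreted phospholipase that breaks down platelet-activating factor, rose with the smallest p. It read 7.18, 7.12 and 7.53 on the Irf8VENUS+ arrays and 4.0 and 4.75 on the Irf8VENUS- arrays. The reporter arrays were all above the filter level of 5.041 and the Irf8VENUS- arrays were both below it, where a value may be background, so the size of the difference is not firm. The difference was 2.74 ± 0.24 (limma, adjusted p 0.038), 2.77 with the gate matched (limma, adjusted p 0.0644) and 2.70 ± 0.27 without replicate 1. The Batf3-/- Irf8VENUS+ arrays, at 7.09, 7.14 and 7.69, were level with the WT reporter arrays. Across 23 alternative settings its adjusted p in limma ran from 0.0137 to 0.292 and it was called in 11.

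Other genes of platelet-activating factor turnover were tested as a list of 12, of which Pla2g7 alone was called. Pla2g4a, the cytosolic phospholipase that releases arachidonic acid and the precursor of platelet-activating factor, read 4.24, 4.71 and 4.80 against 5.31 and 6.12. All reporter arrays were lower and under the filter level of 5.041. The difference was -1.29 ± 0.27, with an adjusted p of 0.354 in limma. The receptor Ptafr differed by -0.10 ± 0.23 and the intracellular hydrolase subunit Pafah1b1 by 0.20 ± 0.18. The list's median was 0.071, and 0.101 without replicate 1.

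Sult1a1, a cytosolic enzyme that adds sulfate to phenols, also rose. It read 8.90, 8.73 and 9.03 on the Irf8VENUS+ arrays and 7.15 and 6.92 on the Irf8VENUS- arrays, with little spread within either group. The difference was 1.83 ± 0.19, or 3.57-fold (limma, adjusted p 0.0444), 1.78 with the gate matched (limma, adjusted p 0.112) and 1.81 ± 0.20 without replicate 1. Unlike Pla2g7, it was low on the Batf3-/- Irf8VENUS+ arrays, at 7.30, 7.29 and 7.19. Across the alternatives its adjusted p ran from 0.0137 to 0.498 and it was called in 7 of 23.

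Of the sulfotransferases and genes that supply their sulfate donor, 7 of 17 were bright enough to test. Sult1a1 was the only sulfotransferase among them. Papss1 and Papss2, which make the donor, differed by 0.14 ± 0.25 and -0.38 ± 0.31, and neither was called.

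Klra5, an inhibitory lectin-like receptor of the Ly49 family known from NK cells, fell. It read 4.32, 4.28 and 6.18 on the Irf8VENUS+ arrays and 6.4 and 6.49 on the Irf8VENUS- arrays. The CD24+ reporter array was thus just under the Irf8VENUS- arrays and the CD24+XCR1+ ones far under them, below the filter level of 5.041, so the size of the difference is not firm. The difference with the gate as a term was -2.01 ± 0.21 (limma, adjusted p 0.0444), the matched-gate one -2.14 (limma, adjusted p 0.0314), and the plain difference of means -1.52. The Batf3-/- arrays showed the same order of gates, at 3.87 and 3.85 for CD24+XCR1+ and 4.94 for CD24+. Across the alternatives its adjusted p ran from 0.0137 to 0.627 and it was called in 8 of 23. Ly49 genes are close copies of each other, and whether this probe set also reads another member is not known.

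On the list of lectins of the natural killer gene complex, 14 of 36 genes were tested. Klra5 was the only one called. Clec2i read 6.43, 6.4 and 7.01 against 7.36 and 7.37 (-0.81 ± 0.27, limma, adjusted p 0.55), and Klrd1, at 6.34, 5.94 and 7.10 against 5.02 and 5.68, went the other way (0.60 ± 0.34, limma, adjusted p 0.719). The median of the 14 was -0.382, and -0.097 without replicate 1. Of the NK cell marker list 4 of 9 genes were bright enough to test and 0 were called, and the summed levels of that list were 9.0 to 9.49 on the Irf8VENUS+ and 8.68 and 9.67 on the Irf8VENUS- arrays.

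After these, the genes with the smallest p among those without overlap are described in each direction, 12 higher and 12 lower with Irf8, Pla2g7, Sult1a1 and Klra5 counted in. None of the other 20 passed the adjusted test with all arrays, and because they were picked by p their differences are a description. Alpl, the tissue-nonspecific alkaline phosphatase, read 7.92, 8.21 and 7.98 against 6.34 and 6.38, a difference of 1.75 ± 0.21 (limma, adjusted p 0.0601). It was lower still, at 6.00, 5.52 and 5.45, on the Batf3-/- reporter arrays. Aldh2, the mitochondrial enzyme that clears acetaldehyde, read 10.49, 9.81 and 11.10 against 8.51 and 8.28, a difference of 1.69 ± 0.24 (limma, adjusted p 0.105). Its Batf3-/- arrays, at 9.74, 9.98 and 11.22, lay with the WT reporter arrays.

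Utf1, a chromatin factor known from embryonic stem cells, read 6.33, 6.80 and 5.80 against 4.81 and 5.09, and the Batf3-/- arrays read 6.37, 6.64 and 5.88. Khdrbs3, an RNA-binding protein, read 5.40, 5.93 and 6.42 against 4.44 and 3.80. Its Batf3-/- arrays read 4.47, 4.36 and 4.46, so only the WT reporter arrays reached the filter level of 5.041. The size of its difference is therefore not firm. The stress-linked kinases Dapk1 and Dapk2 differed by 1.04 ± 0.18 and 0.88 ± 0.18. Dst, a protein that links cytoskeletal filaments, differed by 1.00 ± 0.17, Erc1, a scaffold protein, by 0.91 ± 0.16, and Cd84, a SLAM family receptor, by 1.19 ± 0.22. Cd84 was brighter still without Batf3, at 7.00, 6.63 and 7.19 against 5.61, 5.62 and 6.4 on the WT reporter arrays. Its Irf8VENUS- arrays, at 4.73 and 4.25, were under the filter level, so the size of its difference is not firm.

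Among the lower genes, Ifitm3, which restricts the entry of enveloped viruses, had the largest difference of the 12. It read 6.68, 6.92 and 7.80 against 9.19 and 9.28, a difference of -2.62 ± 0.31 (limma, adjusted p 0.0601). The CD24+ arrays were highest within their groups: the Batf3-/- ones read 7.48 and 6.91 for CD24+XCR1+ and 9.33 for CD24+. Gp2, a receptor for bacterial fimbriae, read 5.62, 5.73 and 6.46 against 8.03 and 7.53 (-2.22 ± 0.27, limma, adjusted p 0.0601).

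Cd207, which encodes langerin, read 5.55, 6.04 and 6.32 against 7.42 and 7.55, a difference of -1.60 ± 0.21 (limma, adjusted p 0.0885). On the Batf3-/- arrays it was lower again, at 5.13, 5.10 and 5.11. Pstpip2, a membrane-bending adaptor of myeloid cells, read 5.42, 4.80 and 5.54 against 6.64 and 6.72. H2-M2, a non-classical MHC class I gene, read 7.57, 7.00 and 7.16 against 8.43 and 8.50, and 6.75, 6.67 and 6.76 without Batf3.

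Zfp872, a zinc finger gene, read 5.71, 4.28 and 5.29 against 7.22 and 7.32, a difference of -2.34 ± 0.39 that was -2.90 ± 0.21 without replicate 1. Its Batf3-/- reporter arrays, at 7.86, 7.54 and 8.39, were above both Irf8VENUS- arrays. Zfp948, another zinc finger gene, differed by -1.18 ± 0.19, and Arhgef3 also by -1.18 ± 0.19. The ETS family genes Ehf and Etv5 differed by -1.15 ± 0.20 and -1.02 ± 0.18. The WT reporter arrays of Ehf and Zfp948 were all under the filter level, so the sizes of those differences are not firm. Etv5 rests on the gate: its CD24+ reporter array read 6.02, near the 6.15 and 6.16 of the Irf8VENUS- arrays, and the CD24+XCR1+ ones 5.18 and 5.16.

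The Batf3-/- reporter arrays fell on both sides. Of the 12 higher genes, their mean was nearer the WT Irf8VENUS+ mean for 7 (Pla2g7, Irf8, Utf1, Aldh2, Dst, Dapk1 and Cd84) and nearer the Irf8VENUS- mean for 5. Of the 12 lower genes the counts were also 7 (Klra5, Ifitm3, Gp2, Cd207, Pstpip2, Zfp948 and H2-M2) and 5. Those arrays differ from Irf8VENUS- WT in Batf3 as well as in the reporter, so the counts describe levels only.

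**Figure D4:**
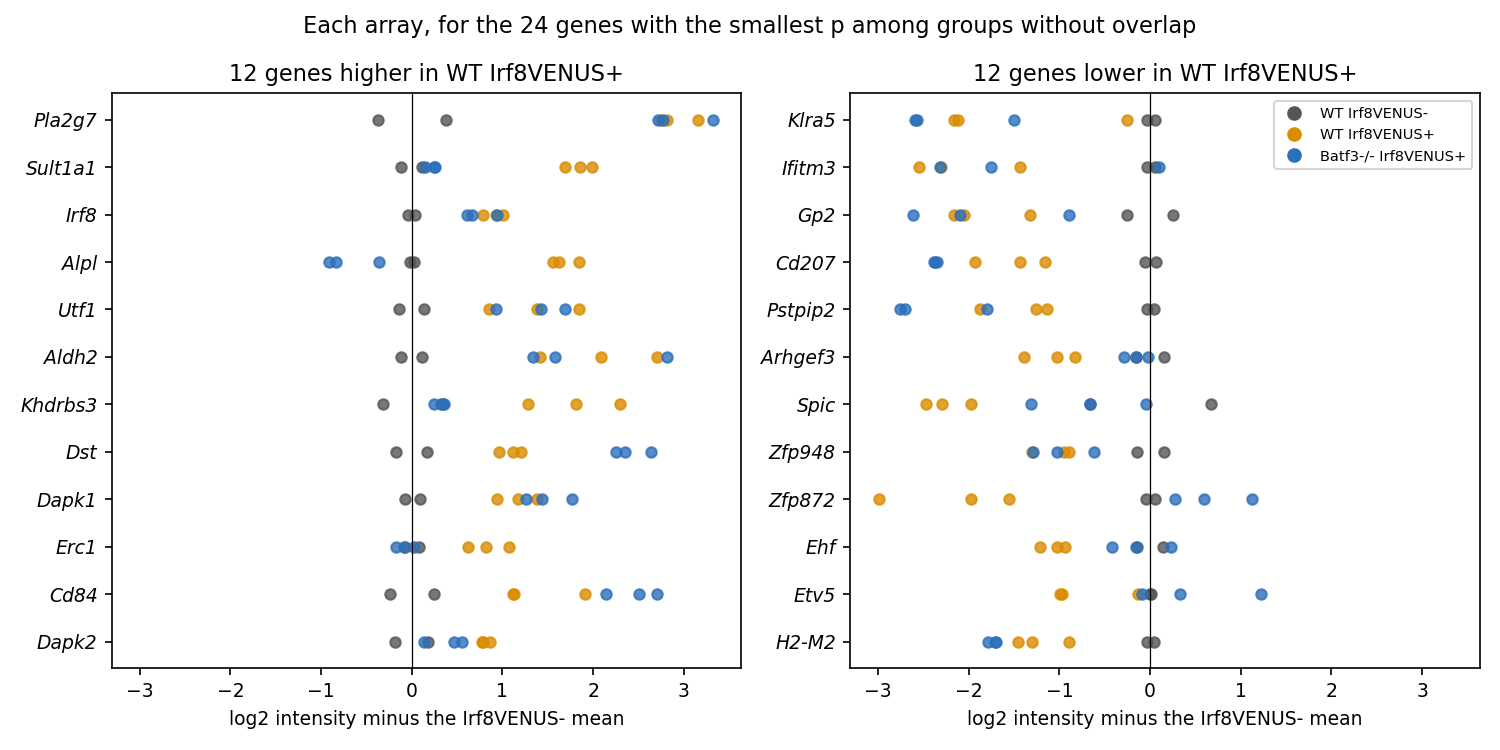
For each of the 24 named genes, the log2 intensity on every spleen array minus the Irf8VENUS- mean; grey points are WT Irf8VENUS-, orange WT Irf8VENUS+ and blue Batf3-/- Irf8VENUS+ arrays. For Sult1a1 and Alpl the orange points lie apart from grey and blue ones, while for Pla2g7 orange and blue points lie together.

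Leaving out Irf8VENUS+ replicate 1 raised the number of called genes from 3 to 15, 9 higher and 6 lower. These were Pla2g7, Sult1a1, Klra5, Irf8, Alpl, Utf1, Aldh2, H2-M2, Pstpip2, Zfp872, Dyrk3, Ifi207, Ndrg1, Rab37 and Snord110. Leaving out Irf8VENUS+ replicate 2, Irf8VENUS- replicate 1 or Batf3-/- replicate 1 or 2 left 0 called, leaving out Irf8VENUS- replicate 2 left 1, and leaving out the WT or the Batf3-/- CD24+ array gave 2, Klra5 and Mterf1b, without Pla2g7 and Sult1a1. The WT arrays alone with the gate matched, 2 against 2, gave 0 called genes in limma and 759 at unadjusted p under 0.05.

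The DC1 identity genes held more small differences above 0 than below. Of 37 tested, 0 were called, and 7 were higher and 2 lower at unadjusted p under 0.05, against 4.52% and 3.39% of all tested genes. In 10 all reporter arrays were above both others and in 4 below, against 14.6% and 10.3%. The median difference was 0.09 with all arrays. Without replicate 1 it was 0.131, with 10 higher and 2 lower at unadjusted p under 0.05 and Irf8 called. Over all 12875 tested genes the fit without replicate 1 gave 689 higher and 448 lower. The higher ones included Irf8, Cadm1, an adhesion molecule, at 10.23, 10.09 and 10.03 against 9.79 and 9.73 (0.44 ± 0.17, limma, adjusted p 0.594), and Gpr33, at 9.34, 9.77 and 9.29 against 9.27 and 7.67. The lower ones were Cd207 and Cd36, the scavenger receptor, at 9.42, 10.09 and 9.45 against 10.51 and 10.61 (-0.86 ± 0.24, limma, adjusted p 0.483). Tlr3, the receptor for double-stranded RNA, read 11.03, 11.21 and 11.01 against 10.93 and 10.82. Xcr1 differed by -0.19 ± 0.50 with all arrays and by 0.53 ± 0.25 without replicate 1. The latter also draws on the gate effect shared with the Batf3-/- arrays, where Xcr1 read 8.99 for CD24+ and 10.98 and 10.77 for CD24+XCR1+. The WT reporter arrays other than replicate 1 read 11.42 and 10.56, on either side of the 11.26 and 11.11 of the Irf8VENUS- arrays.

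Genes of DC maturation and migration leaned lower. Of 39 tested, 0 were called, 34 had a difference below 0, 12 were lower and 1 higher at unadjusted p under 0.05, and in 16 all Irf8VENUS+ arrays lay below both others. Over all 12875 tested genes 6122 had a difference below 0, 3.39% were lower at that level, 4.52% were higher and 10.3% were below without overlap. The median was -0.329 with all arrays. Without replicate 1 it was -0.222, with 10 lower and 4 higher at unadjusted p under 0.05. Over all 12875 tested genes the fit without replicate 1 gave 448 lower and 689 higher. Ccl22, a chemokine of mature DCs, read 7.55, 8.63 and 8.52 against 9.60 and 9.39, a difference of -1.21 ± 0.38 that was -0.69 ± 0.20 without replicate 1. Ccr7, the receptor that guides DCs to lymph nodes, read 7.39, 8.99 and 8.24 against 9.84 and 9.09, a difference of -1.17 ± 0.46 that was -0.53 ± 0.25 without it. Replicate 1 had the lowest value of both genes. Socs3, an inhibitor of cytokine signalling, was the one higher gene, at 6.36, 7.90 and 7.63 against 5.69 and 5.79 (1.36 ± 0.42, limma, adjusted p 0.521).

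The tissue dissociation stress list, immediate early genes that cells switch on during digestion and sorting, had a median below 0 that was closer to 0 without replicate 1. Of 26 tested, 0 were called and 22 were below 0, against 6122 of all 12875 tested genes. The median was -0.49 with all arrays and -0.09 without replicate 1. In 9 of the 26 all Irf8VENUS+ arrays lay below both others and in 1 above, against 10.3% and 14.6% of all tested genes. Without replicate 1 these counts were 12 and 5, against 2227 and 2847 of all 12875 tested genes. At unadjusted p under 0.05 that fit gave 4 lower and 1 higher, against 448 and 689. Atf3, a stress-induced transcription factor, read 8.15, 9.46 and 9.63 against 10.21 and 10.81, a difference of -1.57 ± 0.41 that was -1.0 ± 0.21 without it. It was lowest on replicate 1 and remained below the Irf8VENUS- arrays on the other 2. The heat shock genes Hspa1a and Hspa1b behaved otherwise. Hspa1a, a chaperone, read 11.75 on replicate 1 and 7.37 and 8.94 on the other reporter arrays, against 10.58 and 11.19. Its difference of -1.31 ± 1.07 was -2.87 ± 0.52 without replicate 1 (limma, adjusted p 0.174), and that of Hspa1b, its near-identical copy, went from -1.29 ± 1.07 to -2.83 ± 0.55. Other heat shock genes on the list moved less. Hspa8 went from 0.07 ± 0.08 to 0.02 ± 0.06, Hsp90aa1 from 0.05 ± 0.24 to -0.21 ± 0.19 and Dnajb1 from -0.50 ± 0.32 to -0.71 ± 0.33. The part of the stress genes in the difference of the maturation genes was not tested.

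Genes of MHC class II presentation had a median of -0.349 over 15 tested, and 0.002 without replicate 1. Of the 15, 14 were below 0 with all arrays, against 6122 of all 12875 tested genes. In 6 all Irf8VENUS+ arrays lay below both others and in 0 above, against 10.3% and 14.6% of all tested genes. Without replicate 1 these counts were 7 and 1, against 2227 and 2847 of all 12875 tested genes. H2-Oa, a subunit of the inhibitor of peptide loading, read 7.34 on replicate 1 and 9.18 and 8.96 on the other reporter arrays, against 9.85 and 10.05. H2-DMb2, a subunit of the peptide loading factor, read 9.74, 9.68 and 9.82 against 10.43 and 10.48, and its difference of -0.60 ± 0.22 was -0.52 ± 0.23 without replicate 1. H2-Ab1, a chain of the class II molecule itself, read 12.38, 12.71 and 12.37 against 12.58 and 12.62. For MHC class I presentation the median over 17 genes was 0.053, and 0.189 without replicate 1. At unadjusted p under 0.05, 2 of the 17 were higher and 0 lower, against 4.52% and 3.39% of all tested genes. The higher ones were the peptide editor Tapbpl (0.44 ± 0.17) and the transporter subunit Tap2 (0.42 ± 0.18). Neither list had a called gene.

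Interferon-response genes differed in both directions, more often lower. Of 18 tested, 2 were higher and 4 lower at unadjusted p under 0.05 and 0 were called. The shares over all tested genes were 4.52% and 3.39%. In 5 all Irf8VENUS+ arrays lay below both others and in 2 above, against 10.3% and 14.6%. Of the 18, 12 were below 0, and the median was -0.254, or -0.094 without replicate 1. Isg15, a ubiquitin-like modifier, read 4.95, 5.47 and 5.15 against 6.83 and 6.17 (-1.18 ± 0.29, limma, adjusted p 0.425). Mx1, which blocks influenza viruses, read 6.74, 6.82 and 7.01 against 7.57 and 7.40. Irf7 was among the 2 higher genes. Of the interferon-gamma inducible GTPases, 11 were tested and 0 were called. At unadjusted p under 0.05, 2 were higher and 3 lower, with Iigp1 at 1.12 ± 0.38 and Gbp4 at -0.88 ± 0.37. Without replicate 1 the counts were 3 higher and 1 lower, against 689 and 448 of all 12875 tested genes in that fit. The median of the 11 was -0.091 with all arrays, 0.208 without replicate 1 and 0.099 with the gate matched, so its direction depended on the arrays used.

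Most proliferation genes had small differences above 0. Of 30 tested, 24 were above 0, 4 were higher and 0 lower at unadjusted p under 0.05, 0 were called, and the median was 0.195, or 0.161 without replicate 1. Over all tested genes 52.5% were above 0, and 4.52% were higher and 3.39% lower at that level. Ccnb2, a mitotic cyclin, read 8.68, 8.16 and 8.26 against 7.72 and 7.64 (0.73 ± 0.21, limma, adjusted p 0.483). Mki67, which encodes the proliferation marker Ki-67, read 9.14, 8.88 and 8.83 against 8.59 and 8.30 (0.58 ± 0.19, limma, adjusted p 0.521). In 5 of the 30 all Irf8VENUS+ arrays lay above both others, a share near the 14.6% of all tested genes, and in 0 below, against 10.3%.

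Of the chemokine receptors, 14 were tested and 0 were called. Cxcr4, the receptor for CXCL12, read 7.05, 8.54 and 8.63 against 9.42 and 9.67, a difference of -1.69 ± 0.42 (limma, adjusted p 0.425) that was -1.11 ± 0.22 without replicate 1. All reporter arrays were lower, and replicate 1 was the lowest. The list's median was -0.118, and -0.07 without replicate 1.

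Further lists had medians on both sides of 0. Cholesterol biosynthesis, with 18 tested, had a median of -0.146, and -0.089 without replicate 1, with Hmgcs1 at -0.75 ± 0.22 and Cyp51 at -1.05 ± 0.32. In 7 of the 18 all Irf8VENUS+ arrays lay below both others and in 1 above, against 10.3% and 14.6% of all tested genes. DC cytokines and chemokines, with 21 tested, had a median of -0.344 that was -0.139 without replicate 1. With all arrays 17 of the 21 were below 0, against 6122 of all 12875 tested genes. Ccl3 read 4.77 on replicate 1 and 8.13 and 9.69 on the other reporter arrays, against 8.47 and 9.96. Costimulatory and coinhibitory ligands had a median of -0.074 over 18 genes, and 0.048 without replicate 1. On that list Vsir, which encodes the checkpoint molecule VISTA, read 7.56, 7.79 and 7.31 against 7.14 and 6.73. Toll-like receptors and adaptors had 0.127 over 19 genes and -0.058 without replicate 1. None of these lists had a called gene.

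**Figure D5:**
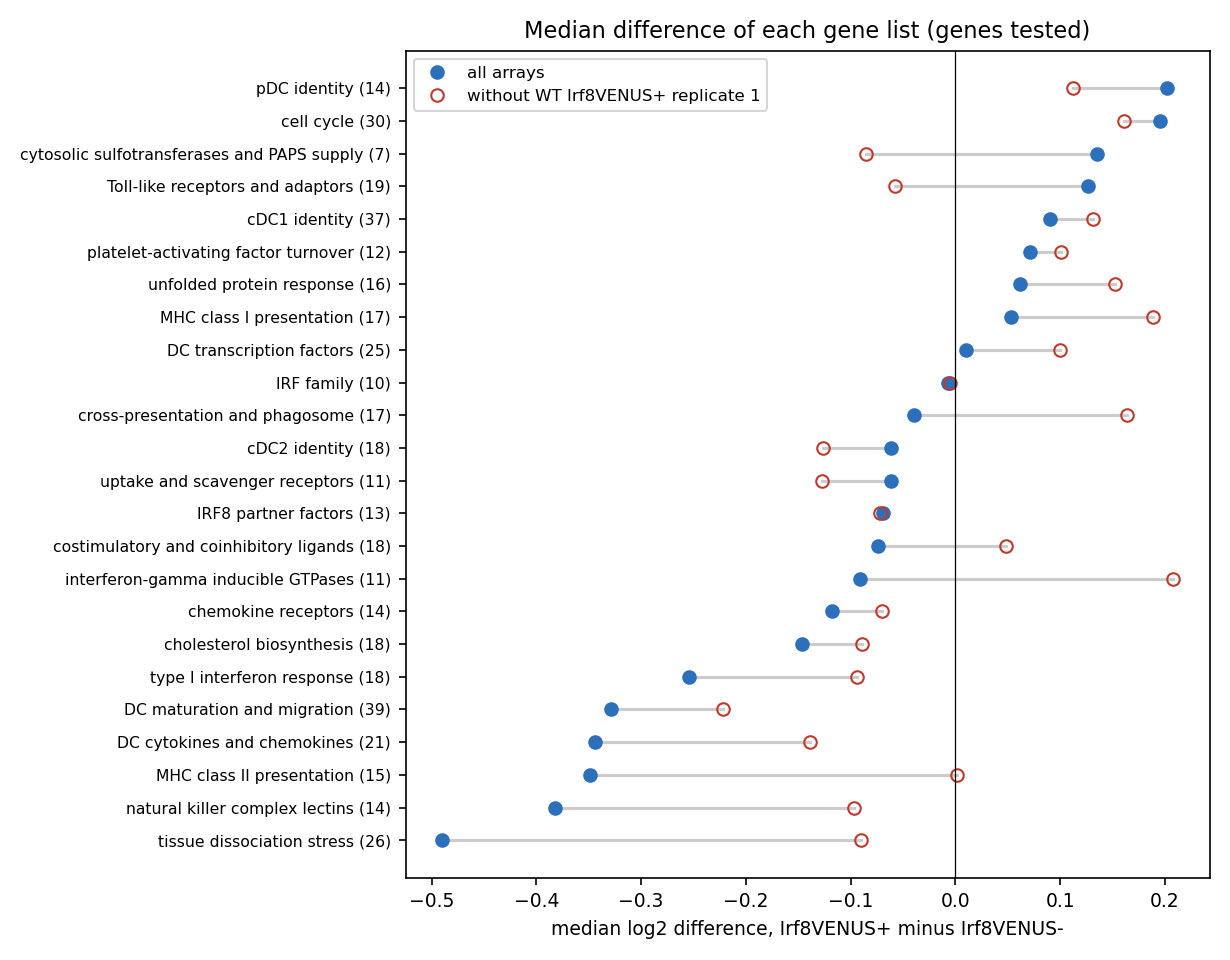
Median log2 difference of each gene list (number of genes tested in brackets) with all arrays (filled) and without WT Irf8VENUS+ replicate 1 (open). The medians of tissue dissociation stress move from -0.49 to -0.09 and of MHC class II presentation from -0.349 to 0.002, while the cell cycle list stays at 0.195 and 0.161.

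Some markers of other cells differed between the groups without passing the test. Of the macrophage and monocyte markers, 10 of 14 on the array were tested and 0 were called; summed levels were 9.18 to 9.64 on the Irf8VENUS+ and 9.73 and 10.19 on the Irf8VENUS- arrays. Spic, a transcription factor of red pulp macrophages, read 4.81, 4.64 and 5.13 against 7.78 and 6.45 (-2.48 ± 0.40, limma, adjusted p 0.215). Hmox1, the heme-degrading enzyme of those cells, read 6.41, 7.23 and 6.85 against 8.65 and 7.96 (-1.52 ± 0.30, limma, adjusted p 0.34). On the same list Ly6c2 (1.23 ± 0.67) and Cd14 (0.47 ± 0.33) went the other way, and the complement genes C1qa (0.04 ± 0.20) and C1qc (-0.13 ± 0.18) and the receptor Csf1r (-0.05 ± 0.28) were near 0. The macrophage genes Cd5l, Mertk, Fcgr1 and Slc40a1 were too dim to test in every group. The part of these markers in the lower genes was not tested.

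For plasmacytoid DC markers 7 of 8 were tested and 0 were called, and summed levels were 9.60 to 9.80 on the Irf8VENUS+ and 9.08 and 9.27 on the Irf8VENUS- arrays. Ccr9, a gut-homing receptor, read 7.11, 7.42 and 7.71 against 6.78 and 6.11 (0.91 ± 0.26, limma, adjusted p 0.498), and Bst2, an interferon-induced antiviral protein, 8.34, 8.47 and 8.72 against 7.24 and 8.21. Tcf4, the defining transcription factor of plasmacytoid DCs, went the other way without overlap, at 6.14, 6.33 and 6.33 against 6.49 and 6.37 (-0.21 ± 0.16, limma, adjusted p 0.797). Siglech, the marker the sort excluded, read 5.97, 5.24 and 5.29 against 5.32 and 4.83, near the filter level and with overlap. For the other lists the summed levels on the Irf8VENUS+ arrays come first. They were 8.63 to 8.76 and 8.70 to 8.72 for T cells, and 8.21 to 8.30 and 8.34 to 8.54 for B cells. They were 7.87 to 8.19 and 8.22 to 8.26 for neutrophils; for these and for B cells the groups did not overlap. They were 8.63 to 9.01 and 8.77 to 8.88 for cDC2, 8.93 to 9.37 and 9.0 to 9.28 for stromal and endothelial cells, and 6.81 to 7.04 and 6.95 to 6.96 for erythroid cells. None of those 6 lists had a called gene.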

How the data were processed

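Spleen DC1 RNA was measured on 8 Affymetrix arrays. The deposited intensities were linear and ran from 1.854 to 13035.5. They came from RMA (background correction, quantile normalization and a summary per probe set), per the submitters' processing notes, which give no version. Log2 of the deposited intensities was taken. Of 41345 probe sets, 23521 had 1 symbol in the platform annotation, 1814 several and 16010 none; 23328 of the first matched a RefSeq gene identifier. Each of 22180 genes was represented by its brightest probe set, and 12875 genes that reached the median level of 5.041 on at least 2 arrays were tested. Precision is limited by how few arrays there are.

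The fit used limma 3.58.1 in R 4.3.3 (lmFit and eBayes with a mean-variance trend). It covered 3 groups of spleen arrays with the sort gate as a term, estimated over the WT and Batf3-/- Irf8VENUS+ groups together. The code was also run on simulated data. Those held no gate effect and no deviating array, so that run does not bear on either in the real arrays. The gate of replicate 3 and its label code go together and cannot be told apart. Named genes were Irf8, Batf3 and the genes of the gate, all called genes, the 12 smallest p in each direction among groups without overlap (leaving out unnamed models and small RNAs), the neighbours of Irf8, and list members by p or known role; further genes were picked with their values in view. The members and lists were chosen with earlier results of these data known. The alternatives were the gate, the replicate number as a block, the groups in the fit, the filter, the scaling, array weights, the variance model, the choice of probe set and each array left out.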

Additional observations from a re-analysis of the deposited data

Results flagged for a closer look

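Probe sets outside the named genes carried a signal on the Irf8VENUS+ arrays that was far above its level on the Irf8VENUS- arrays, and no comparison of named genes uses them. The log2 difference was 6.46 for probe set 17549014 and its identical copies, 5.53 for 17549072, 5.34 for 17549066 and 4.75 for 17549018, beside 0.83 for Irf8. The annotation at hand does not name their targets. Probe sets that share all 8 values with another numbered 1395 of 41345. No group had the 4 arrays needed to look for single arrays far from the rest.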

How the results depend on the processing

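Over 23 alternatives (22 for Ehf, Khdrbs3 and Zfp948), none reversed the direction of the 24 genes named by p, Irf8 included. These genes were picked from the same data for small p and groups without overlap, so that choice already made a reversal unlikely. The fitted difference of Xcr1, not called, changed sign without Irf8VENUS+ replicate 1, in a fit whose gate effect also draws on the Batf3-/- arrays. Of the settings, 4 left 0 called genes: the CD24+XCR1+ WT arrays alone, the WT arrays alone with and without the gate, and the replicate block in place of the gate. No filter, median centring and the probe set with the largest spread each gave 1, every probe set 6 and array weights 18. Leaving out 1 array gave 0 to 15 called genes, 594 to 1295 genes at unadjusted p under 0.05 and 4644 to 6501 without overlap, where fewer arrays overlap less; 594 came without Irf8VENUS- replicate 2. With every probe set 1733 passed the unadjusted threshold, and with no filter 4816 genes did not overlap. The Irf8 difference passed the threshold with array weights, at 0.792 (limma, adjusted p 0.0137), and without Irf8VENUS+ replicate 1; over the arrays left out it ran from 0.766 to 0.877, and over the alternatives its adjusted p ran from 0.0137 to 0.698. Arrays numbered 1 and 2 did not deviate together with their number across the groups, with correlations of 0.00615, -0.0102 and -0.017, and number 3 marks the CD24+ gate, so the numbers were not taken as pairs; with the replicate block Irf8 differed by 0.833 (limma, adjusted p 0.0962) and 1045 genes passed the unadjusted threshold. The other causes were not tested. Values near the filter level cannot be told apart from background, since no file gives a background per probe set.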
